A study of Mus musculus with 18 samples.

Results

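Loss of the A isoform of progesterone receptor (PGR-A) alone was examined in granulosa cells of PRAKO mice, through 6 of the 18 RNA sequencing libraries of a study of 3 mouse strains. The libraries were chosen by their titles, 3 labelled KO (replicates 2, 3 and 4) and 3 labelled WT (replicates 1, 2 and 3), all from the table deposited for the PRAKO strain. KO mice carry the allele Pgr tm1Omc, a germline change present in every cell of the animal, and WT mice are the controls of the same strain. The genotype tag reads the same for both groups, so the grouping rests on the titles. Mice of both groups were 21 to 27 days old, received 5 IU of equine chorionic gonadotropin (eCG), which makes follicles grow, and 46 h later 5 IU of human chorionic gonadotropin (hCG), which stands in for the ovulatory surge of luteinizing hormone (LH). Granulosa cells, which form the inner wall of the follicle around its fluid, were taken 8 h after hCG, and each library pooled the cells of 3 mice.

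PGR is a nuclear receptor for progesterone that LH switches on for a short time in the granulosa cells of follicles about to rupture. It is made from a single gene as PGR-B, the longer form, and PGR-A, which starts further along the same reading frame and lacks the amino-terminal part of PGR-B. Mice without PGR grow large follicles that fail to rupture, and the genes it is known to control in granulosa cells include proteases, vasoactive peptides and other transcription factors.

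The measure was TPM, transcript abundance corrected for length and scaled to the same sum in each library that keeps no read depth. They were added up per gene. Protein-coding genes held 39.7% ± 1.66 of TPM in WT and 46.0% ± 1.62 in KO (SD, n = 3 each), the rest being mostly small non-coding RNAs, of which Rn7s2 alone held 42.5% to 44.8% in WT and 36.7% to 41.8% in KO. Over all genes the log2 fold change had a median of 0.22 on TPM as deposited. After TPM was rescaled to the same sum over protein-coding genes alone, here called the protein-coding scale, the median was 0.01. Below, levels are TPM as deposited, while log2 fold changes (KO against WT, ± SE), adjusted p-values and calls are on the protein-coding scale unless the deposited scale is named. Both come from limma on log2(TPM + 0.5), and a gene was called where the Benjamini-Hochberg adjusted p was at most 0.01 and the fold change at least 2-fold in either direction.

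On the protein-coding scale 350 of 13886 tested genes were called (2.52%). Of these, 270 fell (1.94% of genes tested) and 80 rose (0.576%). On TPM as deposited 285 of 13910 genes were called (2.05%), 168 lower (1.21%) and 117 higher (0.841%), so that falls made up 58.9% of calls there against 77.1% on the protein-coding scale. The deposited falls included 161 protein-coding genes, and each of them was called on the other scale too. Of 104 protein-coding rises, 73 were called on both scales and 31 on the deposited scale only. Rescaling moved the median log2 fold change from 0.22 down to 0.01, so falls could hardly be lost and rises near the limit were. The kept falls and their larger share of calls thus follow largely from the scale and are no check of the falls. In each of the 6 fits that left out 1 library, 112 of the falls and 50 of the rises were called throughout and were calls on both scales. With no limit on the fold, the adjusted p was at most 0.01 in 1518 genes (10.9%), of which 890 were lower (6.41%) and 628 higher (4.52%), and in 1462 genes on TPM as deposited (10.5%). The KO libraries did not overlap the WT libraries in 34.8% of genes on the protein-coding scale and in 51.3% on TPM as deposited.

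Falls were larger than rises. The median size of a called change was 1.46 log2 units among the 270 falls and 1.28 among the 80 rises, and 65 falls but 5 rises reached 2 log2 units. The fallen genes together took 3.20% ± 0.0448 of protein-coding TPM in WT and 1.08% ± 0.0027 in KO (SD, n = 3 each). The risen genes took 0.316% ± 0.0014 and 0.770% ± 0.0478. These sums describe genes chosen by the same values. Calls came from all levels of expression, with 3.41% of genes called below a mean of 5 TPM, 2.62% from 5 to 20, 1.88% from 20 to 100 and 2.92% at 100 or more (TPM on the protein-coding scale).

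**Figure D1:**
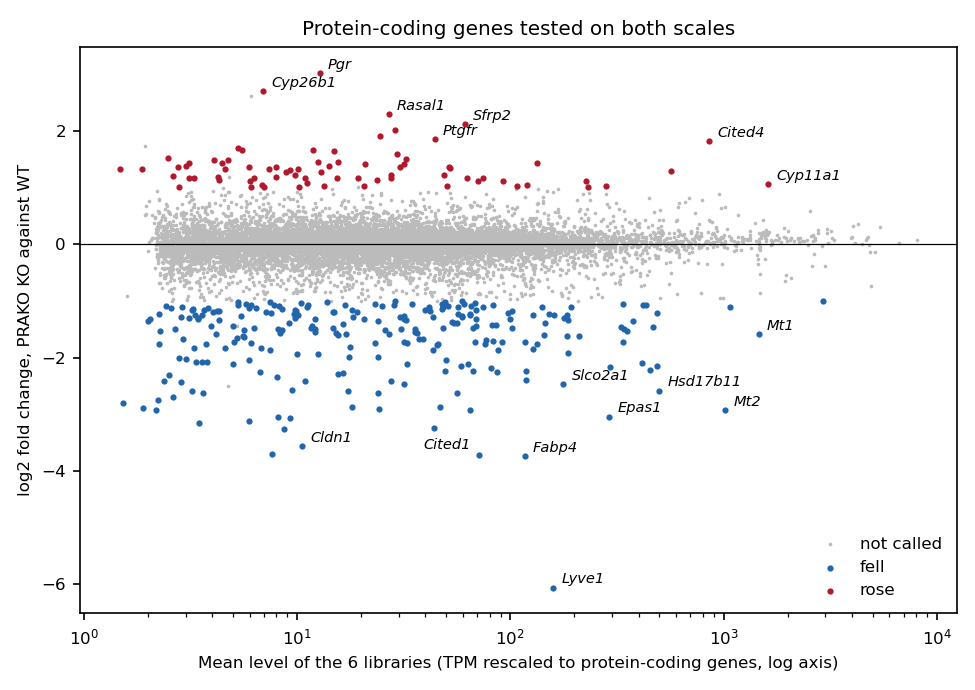
Mean level of each protein-coding gene tested on both scales over the 6 PRAKO libraries (horizontal, TPM on the protein-coding scale, log axis) against its log2 fold change in KO against WT (vertical). Blue and red points are genes called lower and higher on the protein-coding scale, and grey points are not called. The 1342 genes tested on that scale only are not drawn, among them 28 falls and 4 rises. Lyve1 lies lowest, at -6.06, and Pgr highest, at 3.03.

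Pgr itself (chr9:8898900-8968611, build GRCm38.p6) was higher in PRAKO KO. Its level was 0.900, 0.829 and 1.10 TPM in the WT libraries and 8.36, 11.2 and 12.4 TPM in KO. Each KO library thus lay far above each WT library, and the log2 fold change was 3.03 ± 0.14 (adjusted p = 2.98e-08, limma). The table lists a single Pgr transcript, which the isoforms share. The PRAKO allele is known to remove the translation start of PGR-A and to leave a transcript that codes for PGR-B, so the Pgr level cannot check the loss of PGR-A, and no other value in the table does.

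Calls were also counted by distance from Pgr on chromosome 9, where 2.52% of all genes tested is the background. Within 5 Mb of Pgr 23 genes were tested and only Gria4, a subunit of the AMPA glutamate receptor, was called, at 1.10 to 1.41 TPM in WT and 3.62 to 4.76 TPM in KO. Between 5 and 10 Mb the single call of 27 was Kdm4d, a histone demethylase, at 1.57 to 1.94 TPM in WT and 3.94 to 4.57 TPM in KO. From 10 to 20 Mb 78 genes were tested, with 1 fall and 1 rise. From 20 to 40 Mb 116 were tested, with 4 falls (Apoa1, Fli1, Sik3 and Zbtb16) and 0 rises. Beyond 40 Mb 568 genes were tested, with 6 falls and 8 rises. Chromosome 9 as a whole had 11 falls and 12 rises among 813 genes (2.83% called), and over the chromosomes the share ranged from 1.17% on chromosome 16 to 3.98% on chromosome 12. Chromosome 19, with 16 falls, and the X chromosome, with 10, had no rises. Gria4 and Kdm4d, like the other genes named here that are in neither the lists' leading members nor the largest changes, were picked after their values were seen.

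The largest fall was that of Lyve1 (chr7:110850607-110862953), a receptor for hyaluronan known from lymphatic endothelium and some macrophages. It stood at 128, 112 and 135 TPM in WT and at 2.36, 1.27 and 2.39 TPM in KO, a log2 fold change of -6.06 ± 0.16 (adjusted p = 4.50e-10, limma). The lowest WT library was far above the highest KO library. Without Lyve1, the 6 remaining genes of the lymphatic list summed to 33.2 to 36.9 TPM in WT and 32.0 to 37.4 TPM in KO, and Prox1, the transcription factor that defines lymphatic endothelium, was at 0.628 to 0.989 TPM in WT and 1.23 to 1.42 TPM in KO. Ccl21a, a chemokine of lymphatic vessels, was at 2.86, 2.30 and 2.95 TPM in WT and 0, 3.55 and 0 TPM in KO. It was not called (-2.50 ± 0.82 log2 units, adjusted p = 0.0553, limma), but on TPM as deposited it was called without KO replicate 3 (-2.67, adjusted p = 1.59e-04). In bulk samples such as these, fewer cells of a type and less RNA per cell cannot be told apart.

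Next in size on TPM as deposited were the falls of Fabp4 and Cited1. Fabp4 (chr3:10204342-10208616), which carries fatty acids inside cells, was at 106, 81.6 and 71.8 TPM in WT and 8.43, 6.89 and 6.44 TPM in KO (log2 fold change -3.74 ± 0.14, adjusted p = 4.58e-09, limma). Cited1, a cofactor without DNA binding of its own that works through CBP and p300, was at 54.1, 52.9 and 51.6 TPM in WT and 4.28, 3.79 and 5.44 TPM in KO. Its log2 fold change was -3.72 ± 0.10 (adjusted p = 4.28e-10, limma). In neither gene did the groups overlap, as the choice required, and the WT libraries spread more for Fabp4 than for Cited1.

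Cldn1, Jcad and Adam8 were also among the 15 largest falls. Cldn1, the tight junction protein claudin-1, lay at 7.59 to 8.51 TPM in WT and 0.428 to 0.672 TPM in KO (-3.56 ± 0.14 on the log2 scale). Jcad, a protein of endothelial junctions, lay at 44.4 to 46.4 TPM in WT and 6.65 to 6.87 TPM in KO (-2.92 ± 0.06). Adam8, a membrane-bound metalloprotease and a known PGR target, stood at 31.9, 27.8 and 35.6 TPM in WT and 3.41, 3.51 and 4.05 TPM in KO. That is a log2 fold change of -3.25 ± 0.08 (adjusted p = 4.28e-10, limma), with tight KO values and no overlap.

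The metallothionein genes Mt2 and Mt1 fell from high levels. Mt2 (chr8:94172618-94173567), a metallothionein that binds zinc and copper, stood at 751, 738 and 645 TPM in WT and 104, 106 and 114 TPM in KO (log2 fold change -2.93 ± 0.08, adjusted p = 4.28e-10, limma). Its neighbour Mt1 (chr8:94178883-94180327) stood at 938, 872 and 794 TPM in WT and 328, 325 and 356 TPM in KO (-1.58 ± 0.08, adjusted p = 4.34e-08). Both pairs of groups were well apart, and the fall of Mt2 was the larger on the log2 scale. How far reads were shared between these similar genes was not tested.

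Several falls were in genes of signalling and of excitable cells. Sphk1, which makes the lipid mediator sphingosine 1-phosphate, was at 35.7, 32.8 and 29.8 TPM in WT and 4.39, 5.74 and 4.96 TPM in KO (-2.87 ± 0.11 log2 units, adjusted p = 5.36e-09, limma). Scg2, a precursor of secreted neuropeptides, ranged from 4.89 to 7.07 TPM in WT and from 0.553 to 0.671 TPM in KO. Kcne4, an accessory subunit of voltage-gated potassium channels, ranged from 6.14 to 7.55 TPM in WT and from 0.712 to 0.758 TPM in KO. Myh13, a myosin heavy chain of fast muscle, was at 5.66 to 6.90 TPM in WT and 0.527 to 0.618 TPM in KO. Tmem37, a protein related to calcium channel subunits, was at 15.1 to 19.0 TPM in WT and 2.20 to 2.71 TPM in KO. The groups did not overlap for any of these genes, as the choice required. Tmem255a, a membrane protein, was at 5.18 to 6.73 TPM in WT and under 1 TPM in each KO library, from 0.219 to 0.387 TPM. Krtdap, a secreted protein known from skin, was the most uneven of the 15 largest falls in KO, at 1.07, 2.65 and 1.95 TPM against 15.7, 10.7 and 11.7 TPM in WT (adjusted p = 3.75e-06, limma).

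**Figure D2:**
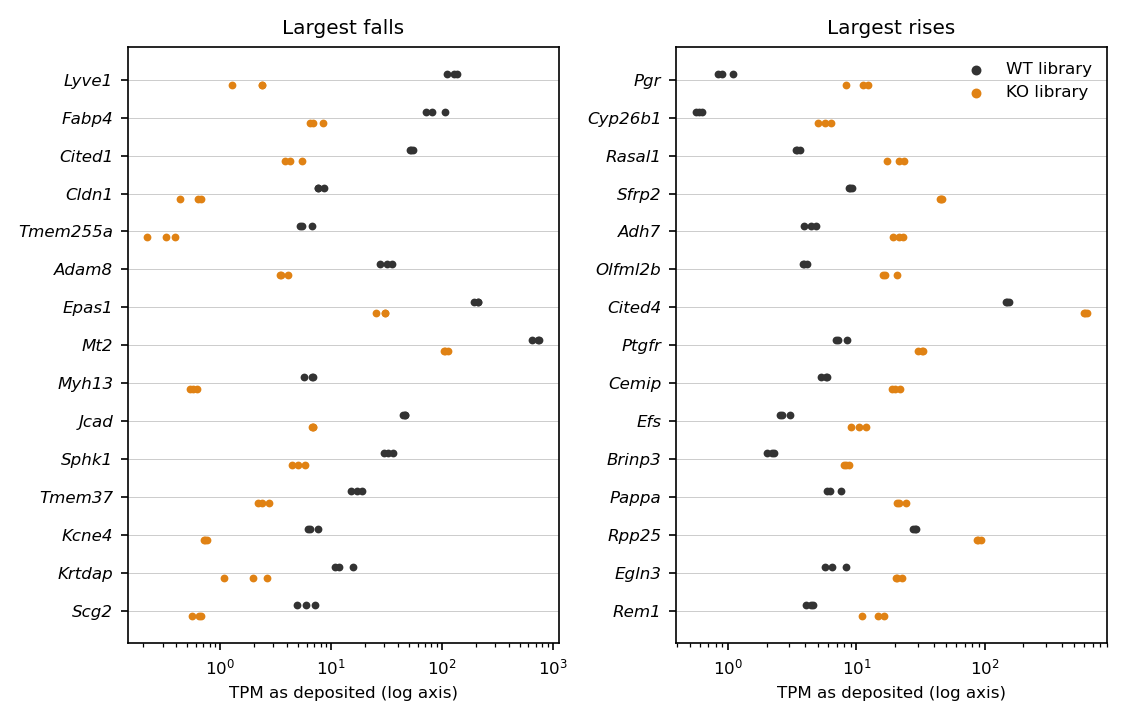
TPM as deposited (log axes) in each WT library (dark points) and each KO library (orange points) for the 15 largest falls (left) and the 15 largest rises (right) among protein-coding genes called on both scales. In each gene shown the 3 KO points lie apart from the 3 WT points, which the choice of the genes required; Lyve1 spans 135 to 1.27 TPM.

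After Pgr the largest rise was that of Cyp26b1, and Adh7 is described beside it since both enzymes can act on retinoids. Cyp26b1 (chr6:84571414-84593908), which breaks down retinoic acid, stood at 0.619, 0.590 and 0.557 TPM in WT and 5.73, 5.05 and 6.37 TPM in KO (log2 fold change 2.70 ± 0.12, adjusted p = 2.27e-08, limma). Adh7, an alcohol dehydrogenase that can oxidize retinol, stood at 4.39, 4.84 and 3.89 TPM in WT and 19.4, 23.0 and 21.5 TPM in KO (2.03 ± 0.11, adjusted p = 9.39e-08). Both genes were higher in every KO library than in any WT library, as the choice of the largest rises required. Of the 17 tested genes of the retinoic acid list, Cyp26b1 was the only call and the median log2 fold change was -0.04, against 0.01 over all genes.

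The most abundant of the large rises was Cited4 (chr4:120666563-120667820), a cofactor of the same family as Cited1. It went from 154, 149 and 146 TPM in WT to 607, 600 and 634 TPM in KO (1.82 ± 0.06, adjusted p = 1.69e-09, limma). Thus the related cofactors moved in opposite directions, with no overlap of groups in either. Cited4 was the more abundant of the pair in each library.

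Sfrp2, a secreted WNT antagonist, lay at 8.78 to 9.17 TPM in WT and 44.8 to 46.6 TPM in KO. Ptgfr, the receptor for prostaglandin F2 alpha, which marks luteal cells, stood at 6.88, 7.12 and 8.40 TPM in WT and 32.6, 30.1 and 33.1 TPM in KO (1.86 ± 0.08 log2 units, adjusted p = 1.33e-08, limma). Cemip, which degrades hyaluronan, lay at 5.28 to 5.88 TPM in WT and 19.1 to 21.9 TPM in KO. Pappa, the protease that frees insulin-like growth factor from its binding proteins, lay at 5.90 to 7.64 TPM in WT and 20.6 to 24.3 TPM in KO. The KO libraries were above the WT libraries for all 4, and also for Olfml2b, a matrix protein (3.81 to 4.13 and 16.1 to 20.9 TPM).

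Among intracellular proteins Rasal1, which turns RAS off, was at 3.35, 3.41 and 3.61 TPM in WT and 17.3, 23.5 and 21.3 TPM in KO (2.29 ± 0.11, adjusted p = 3.28e-08, limma). Rpp25, a subunit of RNase P and RNase MRP, rose from 27.8 to 29.3 TPM in WT to 87.3 to 93.4 TPM in KO. The RNA of RNase MRP, Rmrp, held 4.15% of TPM on average in WT and 3.15% in KO (TPM as deposited). In PRBKO, the strain that lacks PGR-B, it held 3.84% in WT and 1.815% in KO, while Rpp25 changed by 0.13 log2 units there. A link between Rmrp and Rpp25 was not tested. Egln3, the hypoxia-induced prolyl hydroxylase, ranged over 5.70 to 8.24 TPM in WT and 20.5 to 22.7 TPM in KO. Efs, Brinp3 and Rem1, an adaptor of SRC kinases, a protein of neurons and a small GTPase, completed the 15 largest rises with log2 fold changes of 1.65, 1.66 and 1.43.

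Gene groups were described with 38 lists, 28 of pathways and 10 of cell type markers, and each is given below by its calls beside the background of 1.94% fallen and 0.576% risen. The lists were chosen with earlier results of these data known. Their counts are thus descriptions, and an excess over the background is not independent evidence about a group. The first list held genes described as PGR targets in earlier work on ovulation. Of its 15 members 9 fell and none rose, with a median of -1.06 log2 units, and all but 1 lay below 0. The falls were Adam8, Cited1, Ctsl, Cxcr4, Edn2, Epas1, Pparg, Prkg2 and Zbtb16. Ctsl, Cxcr4 and Edn2 were not called on TPM as deposited, where 6 fell. Since such targets were partly found in granulosa cells of mice without PGR, their direction here is not independent evidence.

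In this list the protease Ctsl, cathepsin L, was the most abundant, at 1633, 1478 and 1550 TPM in WT and 892, 864 and 939 TPM in KO. Its log2 fold change of -1.004 ± 0.07 lay close to the limit of the call, and it was not called without KO replicate 3 (-0.9955) or WT replicate 1 (-0.983). Prkg2, a cGMP-dependent protein kinase, stood at 60.3, 54.6 and 53.4 TPM in WT and 25.2, 28.1 and 24.9 TPM in KO (-1.31 ± 0.08, adjusted p = 2.25e-07, limma). Adamts1, a protease that cleaves the matrix of the follicle wall, was at 384 to 416 TPM in WT and 255 to 258 TPM in KO, a log2 fold change of -0.85 that did not reach the limit. For all 3 the WT libraries lay above the KO libraries, where 51.3% of all genes kept the groups apart in either direction on that scale.

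Among 54 transcription regulators of the ovulatory follicle 6 fell and 1 rose (median 0.07). Epas1, hypoxia-inducible factor 2 alpha, was at 212, 196 and 210 TPM in WT and 30.3, 25.6 and 30.8 TPM in KO (-3.04 ± 0.06, adjusted p = 1.40e-10, limma). Pparg, the lipid-sensing nuclear receptor PPAR gamma, was at 46.6 to 62.2 TPM and 11.6 to 14.6 TPM, and Zbtb16, a zinc finger repressor, at 35.2 to 42.1 TPM and 9.52 to 10.2 TPM. Smaller falls were seen in Fosl1, an AP-1 component (29.7 to 31.2 TPM in WT, 15.5 to 17.4 TPM in KO), and in Tsc22d3, a glucocorticoid-induced leucine zipper protein (104 to 110 and 43.8 to 52.6 TPM). Hif1a, the sister gene of Epas1, stood at 104 to 123 TPM in WT and 98.6 to 105 TPM in KO and was not called, and Runx1 and Runx2 were not called either (fold changes of 0.15 and -0.29 on the log2 scale). Nr4a1, an orphan nuclear receptor, was called on TPM as deposited only, at 113 to 142 TPM in WT and 245 to 286 TPM in KO, and not without KO replicate 2 or WT replicate 2 (0.964 and 0.934).

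Of 23 steroidogenesis genes 2 fell and 1 rose, and the median was 0.26. Hsd17b11, a 17 beta-hydroxysteroid dehydrogenase also found on lipid droplets, was at 357, 323 and 334 TPM in WT and 67.2, 60.6 and 68.2 TPM in KO (-2.58 ± 0.06, adjusted p = 1.93e-10, limma). Cyp11a1, which makes pregnenolone from cholesterol, was at 462, 391 and 395 TPM in WT and 868, 1096 and 1058 TPM in KO (1.06 ± 0.10, adjusted p = 8.57e-06, and 0.975 without KO replicate 3, which ended the call). The KO libraries were the lower for the former and the higher for the latter, without overlap. Fshr, the receptor of follicle-stimulating hormone, fell from 29.0 to 37.3 TPM in WT to 15.4 to 20.3 TPM in KO, and was called on the protein-coding scale only, but not without KO replicate 3 (-0.959) or WT replicate 3 (-0.965). Lhcgr, the LH receptor, was at 57.3 to 73.1 TPM in WT and 133 to 148 TPM in KO, a rise called on the deposited scale only, with 0.90 ± 0.07 log2 units on the protein-coding scale.

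Slco2a1 (chr9:103007061-103096002), the transporter that takes up prostaglandins for breakdown, stood at 122, 117 and 118 TPM in WT and 24.0, 25.4 and 25.1 TPM in KO (-2.47 ± 0.06, adjusted p = 1.99e-10, limma). It was 1 of 3 falls among the 23 tested genes of cumulus expansion and prostaglandins, where none rose and the median was -0.08. Egfr, the receptor of the epidermal growth factor-like signals sent by LH-stimulated granulosa cells, and Ptgs1, a cyclooxygenase, were the other falls, at 51.1 to 65.7 and 25.5 to 30.5 TPM, and at 33.1 to 38.4 and 18.8 to 22.0 TPM. Both were called on the protein-coding scale only, Ptgs1 not without KO replicate 3 (-0.985). Ptgs2, Has2, Tnfaip6 and Areg, the LH-induced genes of cumulus expansion and its signals, were not called, with log2 fold changes of 0.06, -0.54, -0.19 and -0.13.

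The glutathione and metal binding list had 6 falls and no rise among 32 tested genes (median -0.17), on either scale Gclc, Gstm1, Gstm2, Mt1, Mt2 and Mt3. Gstm1, a glutathione S-transferase, stood at 303, 281 and 371 TPM in WT and 82.6, 80.6 and 84.7 TPM in KO, and Gstm2 at 168 to 209 TPM and 47.6 to 52.6 TPM. Reads of these near-identical enzymes can be split between them, so their separate values are uncertain. Gclc, the catalytic subunit of the rate-limiting enzyme of glutathione synthesis, was at 81.4 to 101 TPM in WT and 42.6 to 44.5 TPM in KO.

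Of 25 amino acid and one-carbon enzymes 4 fell and none rose (median -0.01). Gpt2, the mitochondrial alanine aminotransferase, stood at 38.6, 38.4 and 38.6 TPM in WT and 7.34, 6.43 and 7.30 TPM in KO (-2.63 ± 0.07, adjusted p = 4.28e-10, limma). Ldhd, which oxidizes D-lactate, was at 10.9 to 13.2 and 1.92 to 2.37 TPM, and Gldc, the glycine-cleaving dehydrogenase, at 6.88 to 7.92 and 1.20 to 1.69 TPM. Glul, glutamine synthetase, was the most abundant, at 195 to 205 TPM in WT and 80.5 to 82.2 TPM in KO. The WT libraries lay above the KO libraries in all 4 genes, and each was called on both scales.

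Pfkfb3, which makes the activator of phosphofructokinase, fell from 23.3, 23.2 and 21.1 TPM in WT to 7.86, 7.46 and 8.80 TPM in KO (-1.67 ± 0.08, adjusted p = 3.60e-08, limma). Hk2, the hexokinase of growing cells, rose from 22.7, 23.9 and 22.1 TPM to 59.4, 55.1 and 59.4 TPM (1.12 ± 0.07, adjusted p = 2.57e-07). With Egln3 these were the calls among 32 genes of glycolysis and hypoxia response (median -0.13). None of the 34 nuclear-encoded genes of oxidative phosphorylation was called by limma on either scale, and their median was 0.05, with 8 of them at an unadjusted p under 0.05 on the protein-coding scale. None had an adjusted p of at most 0.01 there (limma), against 10.9% of all genes tested.

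Fabp4, Plin4 and Pparg fell among 34 tested genes of lipid storage and PPAR gamma targets, none rose, and the median was -0.06. Plin4, a coat protein of lipid droplets, was at 4.15 to 5.69 TPM in WT and 1.48 to 2.17 TPM in KO. No gene of the 30 for cholesterol synthesis and uptake was called by limma, but 5 alone lay below 0 and the median was 0.14. The unadjusted p was under 0.05 in 19 of the 30. The adjusted p was at most 0.01 in 9 (limma), against 10.9% of all genes tested. In this list Sc5d, Fdps and Idi1, which act along the synthesis of cholesterol, had log2 fold changes of 0.63 ± 0.06, 0.43 ± 0.06 and 0.37 ± 0.06. Each had an adjusted p under the limit of limma and a change under 2-fold, such as 66.1 ± 6.07 TPM in WT and 119 ± 6.73 TPM in KO for Sc5d (SD, n = 3 each).

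Among 34 angiogenic and vasoactive signals 5 fell (median -0.10), namely Cxcr4, Edn2, Efnb2, S1pr3 and Sphk1, of which Efnb2 and Sphk1 were called on TPM as deposited too. Efnb2, the ligand ephrin-B2, stood at 41.9, 41.3 and 40.1 TPM in WT and 10.8, 10.9 and 10.9 TPM in KO (-2.12 ± 0.06, adjusted p = 1.15e-09, limma). Edn2, endothelin 2, a peptide that contracts smooth muscle, was at 7.90 to 8.76 TPM in WT and 3.66 to 4.58 TPM in KO. Cxcr4, a chemokine receptor, was at 178 to 187 TPM in WT and 99.0 to 102 TPM in KO. S1pr3, a receptor of the product of Sphk1, was at 1.68 to 2.10 TPM and 0.708 to 0.919 TPM.

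The list of actin, adhesion and invasion had 6 falls and no rise among 47 genes (median -0.18). Dysf, the membrane repair protein dysferlin, was at 6.84, 6.03 and 6.88 TPM in WT and 1.10, 1.01 and 1.18 TPM in KO (-2.57 ± 0.11, adjusted p = 9.67e-09, limma). Gas7, which bundles actin, was at 54.3 to 60.3 and 12.4 to 14.8 TPM. Pdlim1, a PDZ and LIM protein of actin fibres, was at 200.2 to 222 and 83.5 to 84.0 TPM, and its relative Pdlim4 at 35.3 to 40.2 and 18.1 to 21.9 TPM, the latter called on the protein-coding scale only. Sorbs2, an adaptor of actin fibres, and Cdk6, a kinase of the G1 phase, were the other calls, with Cdk6 at 19.6 to 24.3 TPM in WT and 5.04 to 5.94 TPM in KO.

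Of 25 junction genes 4 fell and none rose (median -0.21). Besides Cldn1 and Jcad these were Cgn and Cdh5. Cgn, the tight junction adaptor cingulin, was at 37.1, 35.6 and 44.8 TPM in WT and 16.7, 15.03 and 16.7 TPM in KO. Cdh5, the cadherin of vascular endothelium, was at 29.9, 28.5 and 25.5 TPM in WT and 10.4, 8.31 and 9.27 TPM in KO (-1.78 ± 0.10, adjusted p = 8.87e-08, limma). Beside these falls the 20 blood endothelial markers summed to 68.1 to 75.8 TPM in WT and 42.4 to 52.7 TPM in KO, with 4 of them under 1 TPM in each library and none at 0 throughout. Without Cdh5 they summed to 41.4 to 45.9 TPM in WT and 34.1 to 42.2 TPM in KO, which overlap, and on the protein-coding scale to 104.6 to 113.5 and 76.1 to 93.1, which do not. All 18 tested markers of this list lay below 0, with a median of -0.37 against 0.01 over all genes. Among them Pecam1, Kdr and Emcn, which define blood endothelium, had log2 fold changes of -0.36, -0.08 and -0.57 and were not called. The part of such cells in the falls was not tested.

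**Figure D3:**
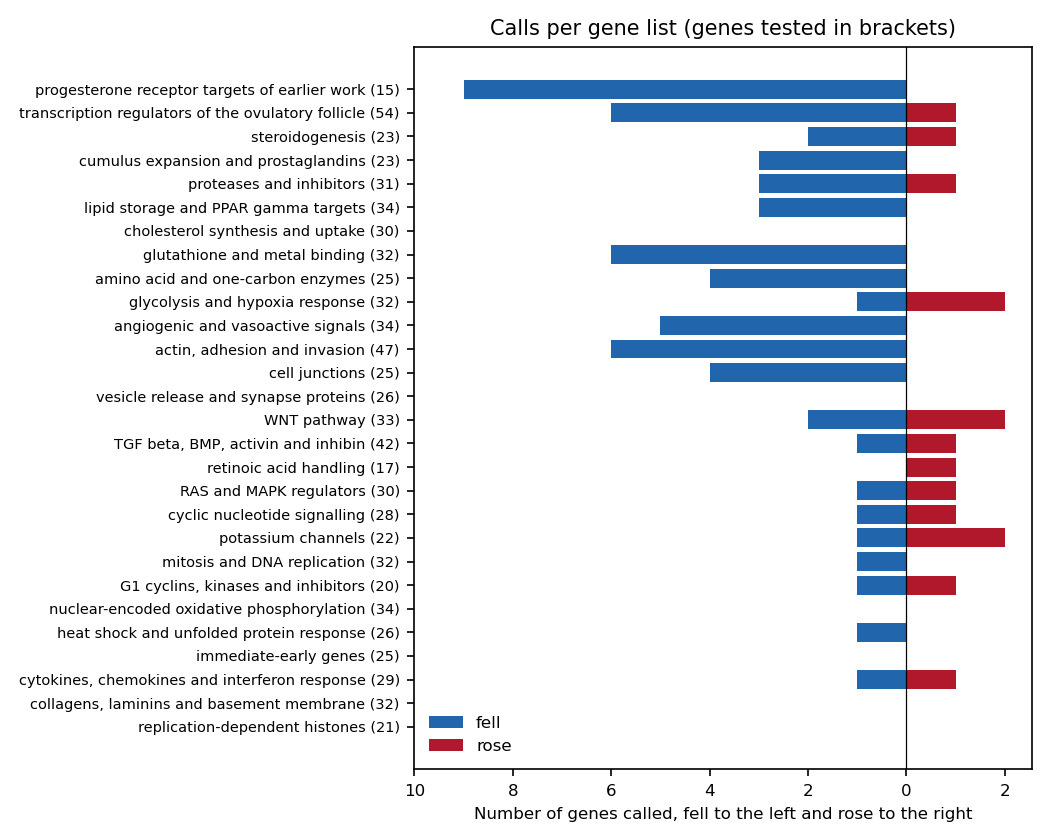
Number of genes called lower (blue, to the left) and higher (red, to the right) in PRAKO KO on the protein-coding scale in each of the 28 pathway lists, with the number of genes tested in brackets. PGR targets of earlier work show 9 falls of 15 genes, and actin, glutathione and junction genes show falls without rises. The lists were chosen with earlier results of these data known.

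WNT genes changed in both directions, with 2 falls and 2 rises among 33 (median 0.00). Fzd1, a WNT receptor, fell from 75.3, 76.1 and 80.4 TPM in WT to 17.7, 20.03 and 18.7 TPM in KO (-2.24 ± 0.07, adjusted p = 1.14e-09, limma). Apcdd1, a membrane inhibitor of WNT signals, was at 45.7 to 47.4 TPM in WT and 16.4 to 17.3 TPM in KO. Wnt4, a ligand needed for ovary development, rose from 11.2, 10.7 and 12.4 TPM to 29.7, 33.2 and 31.3 TPM (1.23 ± 0.07, adjusted p = 2.12e-07), as did the antagonist Sfrp2 described above. Receptor and membrane inhibitor were thus lower, and ligand and secreted antagonist higher, in each KO library than in any WT library.

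In the TGF beta, BMP, activin and inhibin list 1 gene of 42 fell and 1 rose (median 0.08). Nbl1, a secreted BMP antagonist, was at 19.0 to 19.8 TPM in WT and 6.196 to 7.25 TPM in KO (-1.72 ± 0.08). Tgfbr1, a TGF beta receptor, was at 65.1 to 84.4 TPM in WT and 168 to 177 TPM in KO (1.04 ± 0.08), and was not called without WT replicate 1 (0.942). Fst, the activin-binding protein follistatin, stood at 264 ± 0.232 TPM in WT and 158 ± 14.4 TPM in KO (SD, n = 3 each), a log2 fold change of -0.96 ± 0.07 that missed the 2-fold limit.

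Signalling lists had few calls. Of 28 cyclic nucleotide genes Prkg2 fell and Npr3, the clearance receptor of natriuretic peptides, rose from 0.668 to 0.858 TPM in WT to 2.50 to 3.08 TPM in KO. Npr1, the receptor that makes cGMP, was at 26.8 to 30.8 TPM in WT and 57.3 to 72.6 TPM in KO and was called on TPM as deposited only, as was Prkar2b, a regulatory subunit of protein kinase A (176 to 226 and 354 to 433 TPM). Among 30 RAS and MAPK regulators Dusp2, a phosphatase of MAP kinases, fell from 1.57 to 2.58 TPM to 0.159 to 0.358 TPM, and Rasal1 rose. Of the potassium channel genes described here Kcne4 fell and Kcnk3 rose, with Kcnk3 at 2.39 to 4.27 TPM in WT and 7.496 to 9.20 TPM in KO. Kcnk3 was not called without KO replicate 3 (0.934) or WT replicate 2 (0.832). On TPM as deposited the calls of Prkar2b ended without KO replicate 2, KO replicate 4 or WT replicate 2 (0.981, 0.992 and 0.953).

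Cell cycle, stress and matrix lists gave few calls. Among 32 genes of mitosis and DNA replication Rrm2, a subunit of ribonucleotide reductase, was the only call, at 39.8 to 47.3 TPM in WT and 23.0 to 25.8 TPM in KO. Cdk6 fell and Rprm, a mediator of G2 arrest, rose among 20 genes of G1 cyclins, kinases and inhibitors, Rprm from 0.724 to 0.959 TPM to 3.12 to 4.21 TPM. Hspb1, a small heat shock protein, was the 1 call of 26 in heat shock and the unfolded protein response, at 40.2, 24.1 and 31.7 TPM in WT and 14.2, 15.9 and 15.8 TPM in KO. Of 29 cytokine, chemokine and interferon response genes Tnfsf11, the cytokine RANKL, fell and Il18, an interleukin, rose, the former not called without KO replicate 4 (adjusted p = 0.0127, limma) and the latter not without KO replicate 3 or WT replicate 2 (0.927 and 0.865 log2 units). Among proteases and inhibitors Plau, urokinase, rose from 56.9 to 63.1 TPM in WT to 138 to 150 TPM in KO, and 3 of 31 genes fell, namely Adam8, Ctsl and the inhibitor Timp2. Plau was not called without WT replicate 1 (0.9595), Rrm2 not without WT replicate 2 (-0.996) and Timp2 not without KO replicate 2 or WT replicate 3 (-0.997 and -0.975). No call was made by limma on the protein-coding scale among 25 immediate-early genes, 26 vesicle and synapse genes, 32 collagens, laminins and basement membrane genes or 21 histone genes, with medians of 0.25, 0.01, -0.13 and 0.12. At an unadjusted p under 0.05 there were 13, 11, 14 and 5 genes in these lists. The adjusted p was at most 0.01 in 4, 3, 10 and 0 of them (limma), against 10.9% of all genes tested.

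Markers of granulosa cells were abundant, as their label requires. The 14 granulosa markers summed to 2783 to 3043 TPM in WT and 3622 to 4036 TPM in KO, and Foxl2 and Nr5a1, transcription factors of these cells, were at 30.4 to 33.5 and 52.4 to 55.0 TPM in WT and 41.1 to 50.4 and 65.5 to 73.4 TPM in KO. Inha, an inhibin subunit, was at 1437 to 1546 TPM of the WT sum and 2023 to 2320 TPM of the KO sum. The only call of the list was the fall of Fshr, and 4 of the 14 genes, Fst among them, lay below 0. The 10 luteal markers summed to 2179 to 2493 TPM in WT and 3551 to 3974 TPM in KO, with Cyp11a1 and Ptgfr called higher and Parm1, a membrane protein, called lower. Theca, leukocyte, smooth muscle and surface epithelium markers summed to less than 100 TPM in each library. On the protein-coding scale the KO sums of these 4 lists and of oocyte markers lay below the WT sums (leukocytes 136 to 144 in WT and 90.9 to 113.4 in KO), while erythroid markers overlapped. On that scale 17 of 18 tested leukocyte markers lay below 0 (median -0.33), 11 of 12 of smooth muscle (-0.39) and 10 of 10 of surface epithelium (-0.33). Oocyte markers had 13 of 14 below 0 (-0.31), theca 9 of 13 (-0.135) and erythroid 7 of 8 (-0.31). The granulosa and luteal medians were 0.22 and 0.475. Of the 18 leukocyte markers tested none was called by limma, with 9 at an unadjusted p under 0.05. The adjusted p was at most 0.01 in 4 of them (limma), against 10.9% of all genes tested. Hhip was the only call of 13 theca markers, without which the theca sums overlapped. The part of other cells in the changes was not tested.

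**Figure D4:**
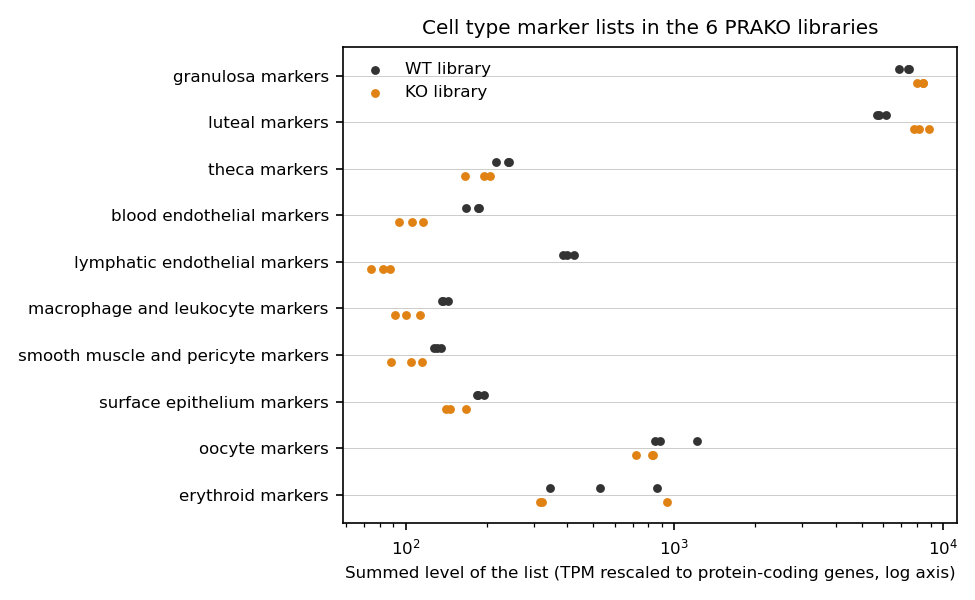
Summed level of each cell type marker list (TPM on the protein-coding scale, log axis) in the WT libraries (dark) and the KO libraries (orange) of PRAKO. Granulosa and luteal sums lie highest and are higher in KO, the lymphatic sum falls from between 385 and 422 to between 74.5 and 87.6, and erythroid sums overlap. Without Lyve1 (not drawn) the lymphatic sums were 82.0 to 90.7 in WT and 71.6 to 82.3 in KO, which overlap.

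Transcripts were tested without adding them up per gene. Of 19980 transcripts tested as deposited 343 were called (1.72%), 198 lower and 145 higher, in 293 genes. Only in Zfp207, of 3990 genes with at least 2 tested transcripts, were transcripts called in opposite directions. There, 1 non-coding transcript was listed at 0 in each WT library and at 1.49 to 3.73 TPM in KO, and another went from 1.69 to 2.05 TPM to at most 0.397 TPM, while the gene as a whole was at 102 to 117 and 118 to 125 TPM.

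In 35 genes a transcript was called and the gene was not, both on TPM as deposited. Some of these genes fell more than 2-fold on the protein-coding scale, such as Clint1 and Zfp13 (-1.10 and -1.22 log2 units in the fit of 18 libraries). Smarca2, an ATPase of the SWI/SNF chromatin remodellers, had a transcript at 28.4 to 36.6 TPM in WT and 10.96 to 12.5 TPM in KO, against 55.0 to 64.0 and 38.6 to 48.4 TPM for the gene. Scap, which escorts the sterol-sensing transcription factors SREBP, had a transcript at 44.3 to 55.3 TPM in WT and 98.2 to 110 TPM in KO, and its gene missed the fold limit at 0.99 log2 units as deposited. Stk11, the kinase LKB1, had a transcript listed at 0 in each KO library and at 2.95 to 7.80 TPM in WT. How reads are split between overlapping transcripts is an estimate, and its error was not analysed here.

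The promoters of called genes were searched for the letters that PGR is known to prefer, since the hormone response element is shared by the steroid receptors of its class. RefSeq gave 250 bases before the start of 11131 tested protein-coding genes, of which 203 fell and 59 rose. The full element, written GNACANNNTGTNC and searched on both strands, was in 0.287% of all these windows, in 3 of those of fallen genes (1.48%) and in none of those of risen genes. A part of it, TGTTCT, was in 10.8% of all windows, 13.3% of fallen and 10.2% of risen genes. The AP-1 letters TGANTCA were in 4.53%, 6.90% and 3.39%, the RUNX letters TGTGGT in 10.6%, 10.3% and 15.3%, and the GC box GGGCGG in 57.7%, 46.3% and 50.8%. The parts were counted also where they lay inside a full element. A match describes letters, not a bound site.

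The 3 windows of fallen genes that held the full element are shown here, since they are the only such matches among the calls, on the plus strand of GRCm38.p6 with the element in capitals. They belong to Fyb2, an adaptor of platelets and T cells (chr4:104913311-104913560), to Mt1 (chr8:94178839-94179088) and to Clic3, an intracellular chloride channel protein (chr2:25456593-25456842).
Fyb2: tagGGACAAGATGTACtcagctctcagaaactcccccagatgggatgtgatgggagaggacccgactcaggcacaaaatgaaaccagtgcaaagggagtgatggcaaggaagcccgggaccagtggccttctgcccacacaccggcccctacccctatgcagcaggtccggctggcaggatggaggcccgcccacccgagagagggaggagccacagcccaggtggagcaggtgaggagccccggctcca
Mt1: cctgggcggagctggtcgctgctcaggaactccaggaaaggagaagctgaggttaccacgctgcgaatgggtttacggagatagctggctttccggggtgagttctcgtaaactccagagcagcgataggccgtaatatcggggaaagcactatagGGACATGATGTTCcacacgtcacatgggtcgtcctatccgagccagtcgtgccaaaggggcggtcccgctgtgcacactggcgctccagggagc
Clic3: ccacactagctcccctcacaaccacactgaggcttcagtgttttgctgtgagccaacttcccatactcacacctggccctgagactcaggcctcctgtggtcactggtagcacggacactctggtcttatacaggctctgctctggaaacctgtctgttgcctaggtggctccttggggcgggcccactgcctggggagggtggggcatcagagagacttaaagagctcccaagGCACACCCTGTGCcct
The element began 247, 94 and 16 bases before the annotated start in Fyb2, Mt1 and Clic3. That start belongs to the transcript for which RefSeq gave the window, and in Mt1 it lies inside the gene interval printed above, which spans all transcripts of the gene. Their log2 fold changes were -1.76, -1.58 and -1.25, and Mt1 was by far the most abundant of them.

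The KO effect in PRAKO was set beside that in PRKO, the strain without either isoform, and in PRBKO, which lacks PGR-B, each against its own WT libraries, in a fit of all 18 libraries on the protein-coding scale. Difference contrasts called 52 of 14297 genes between PRAKO and PRKO (0.364%) and 329 of 14058 between PRAKO and PRBKO (2.34%). Of the 329, 251 were lower in PRAKO and 310 had the larger change there. Of the 52, 25 were lower and 27 higher in PRAKO, 21 had the larger change there and 22 had opposite signs in the strains.

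The 15 largest falls of PRAKO were lower in PRKO KO as well, with log2 fold changes from -5.14 to -1.24 there (median -2.60) against -6.06 to -2.87 in PRAKO (median -3.06). In PRBKO they ranged from -1.37 to 1.00 (median -0.05). Since these genes were picked for their size in PRAKO, the comparison is a description. Lyve1 had a log2 fold change of -5.14 ± 0.20 in PRKO and 0.52 ± 0.20 in PRBKO, Cldn1 of -3.77 ± 0.13 and -0.05 ± 0.13, and Sphk1 of -2.81 ± 0.11 and 0.35 ± 0.11. None of the 15 differed between PRAKO and PRKO by both limits, though Mt2, at -2.93 in PRAKO and -2.13 ± 0.09 in PRKO, Adam8 and Jcad passed the limit on p alone (differences of -0.80, -0.71 and -0.61, adjusted p = 0.00231, 0.00231 and 0.00868, limma). The 15 largest rises ran from 0.12 to 2.71 in PRKO (median 1.43) and from -0.27 to 0.59 in PRBKO (median 0.30). Of these Pgr and Ptgfr were called for the difference from PRKO.

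Some genes fell further without PGR-A alone than without both isoforms. Slco2a1 changed by -2.47 ± 0.07 in PRAKO and -1.20 ± 0.07 in PRKO, a difference of -1.27 ± 0.10 (adjusted p = 4.80e-06, limma). Cdh5 changed by -1.78 ± 0.10 and -0.70 ± 0.10 (difference -1.07 ± 0.14, adjusted p = 4.15e-04). Csgalnact1, an enzyme that starts chondroitin sulfate chains, was listed at 1.43 to 1.53 TPM in PRAKO WT and 0.286 to 0.387 TPM in PRAKO KO, and changed by -1.75 in PRAKO and -0.17 in PRKO. S100a6, a calcium-binding protein, changed by -2.10 in PRAKO, from 238 to 314 TPM to 60.6 to 80.5 TPM, and by -0.87 in PRKO.

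Others changed less in PRAKO than in PRKO. Cxcr4 was at -1.06 ± 0.07 in PRAKO and -2.34 ± 0.07 in PRKO (difference 1.28 ± 0.10, adjusted p = 3.39e-06, limma), and Zbtb16 at -2.15 ± 0.16 and -3.91 ± 0.16 (1.76 ± 0.22, adjusted p = 3.74e-04). Adamts1 changed by -0.85 in PRAKO and -2.05 in PRKO, and Scara5, a ferritin receptor, by -1.43 and -3.32. Gnao1, a G protein alpha subunit, was at -0.04 ± 0.11 in PRAKO and -1.56 ± 0.11 in PRKO. Plau was higher in the KO of both strains, by 1.02 ± 0.15 in PRAKO and 2.31 ± 0.15 in PRKO.

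Of the named genes called for this difference, B3galnt1 and Jph2 had opposite signs in the strains. So did Dok6, but in PRAKO it passed neither limit and its sign there is uncertain. Lhcgr had opposite signs too, but its change in PRKO was too near 0 for its sign to be read. B3galnt1, a glycosyltransferase, was at 0.50 ± 0.07 in PRAKO and -0.60 ± 0.07 in PRKO, and Jph2, a junctophilin that ties the endoplasmic reticulum to the plasma membrane, at 0.58 ± 0.08 and -0.63 ± 0.08. Dok6, a docking protein, was at -0.30 ± 0.13 in PRAKO and 1.53 ± 0.13 in PRKO. On TPM as deposited its change in PRAKO was -0.09 ± 0.09, and the groups overlapped. Lhcgr was at 0.90 ± 0.08 in PRAKO and -0.10 ± 0.08 in PRKO (adjusted p = 1.33e-04, limma). Ptgfr and Pgr had the larger change in PRAKO, Ptgfr at 1.86 ± 0.17 and 0.53 ± 0.17 and Pgr at 3.03 ± 0.36 and 0.12 ± 0.36 (adjusted p = 0.00602 and 0.00374, limma). Ptgfr was higher in the KO of both strains, while the change of Pgr in PRKO was smaller than its SE. No label gives the batch in which a library was made, so strain and batch cannot be told apart. With any 1 PRAKO library left out, 30 to 40 genes were called for this difference in place of 52, the fewest without KO replicate 2.

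**Figure D5:**
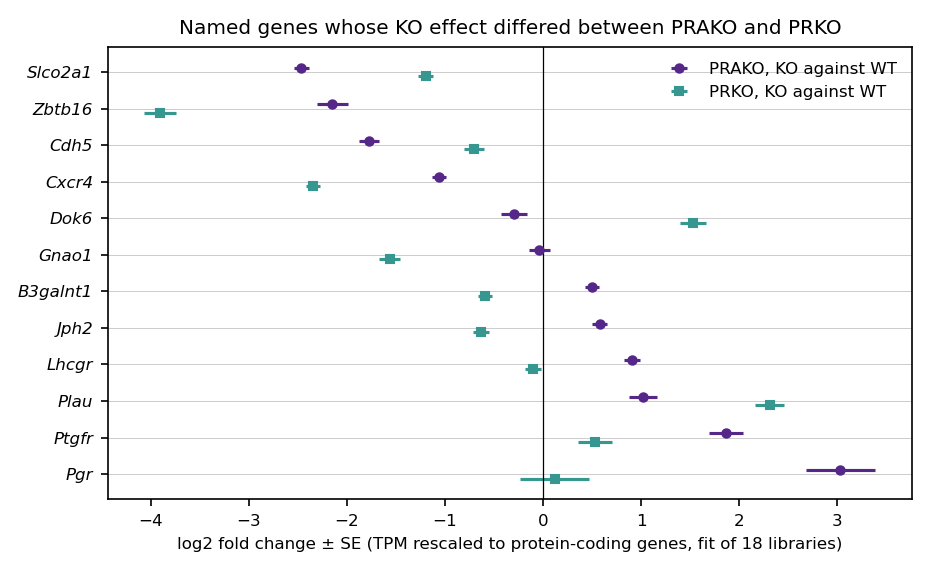
Log2 fold change of KO against WT with its SE in PRAKO (purple circles) and PRKO (green squares), on the protein-coding scale in a fit of 18 libraries, for the named genes called for the difference between the strains. Slco2a1 lies at -2.47 in PRAKO and -1.20 in PRKO, Zbtb16 at -2.15 and -3.91, and Pgr at 3.03 and 0.12.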

How the data were processed

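Groups of the 18 libraries were read from the sample titles. The deposited values are TPM per transcript, 1 table per strain, with each column summing to 1000000. The authors checked reads with FastQC and estimated transcript levels with Salmon on GENCODE M25 (GRCm38.p6), while the deposited tables list RefSeq transcripts, and no program version is stated in the labels or methods. Of 42251 transcripts 42072 matched a RefSeq gene, and the 179 others held 0.963% to 1.39% of PRAKO TPM. TPM was summed over 24963 genes, 20711 of them protein coding. No column was left unused. The paper gives a range of read depth for the granulosa cell libraries, but TPM does not hold the depth of each library.

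Genes with 1 TPM in at least 3 of 6 libraries were fitted with limma 3.58.1 (R 4.3.3, trended prior, two-sided, pseudocount 0.5), as voom needs counts. The log2(TPM + 0.5) scale understates changes of low genes. Replicates are pools of different mice as far as the labels say.

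The members and lists were chosen with earlier results of these data known. Named genes are Pgr, the 15 largest falls and rises called on both scales with groups apart and a mean of at least 5 TPM, up to 4 genes per list by p, and 6 by the PRKO contrast. Others were named after their values were seen, and a result that names a withheld item is not reported here. Alternatives were pseudocounts of 1 and 0.1, other filters, size factors, a constant prior, 18 libraries in 1 fit, a replicate block and leaving out libraries. Only the gene fit of the 6 PRAKO libraries on TPM as deposited was tried on simulated data. The fits on the protein-coding scale, of transcripts and between strains were not. Python 3.11.15, pandas 2.3.3 and matplotlib 3.10.9 were used.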

Additional observations from a re-analysis of the deposited data

Results flagged for a closer look

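For 12 of the named genes the KO effect of PRAKO differed from that of PRKO in the contrast of all 18 libraries (limma, adjusted p at most 0.01 and a difference of at least 1 log2 unit), and each is listed by its difference, PRAKO minus PRKO, on the protein-coding scale. The difference was 2.91 for Pgr, 1.76 for Zbtb16, 1.52 for Gnao1, 1.33 for Ptgfr, 1.28 for Cxcr4, 1.21 for Jph2, 1.09 for B3galnt1 and 1.01 for Lhcgr. It was -1.83 for Dok6, -1.29 for Plau, -1.27 for Slco2a1 and -1.07 for Cdh5. The batch of the libraries cannot be told apart from the strain. No group had more than 3 libraries, so no single library was tested as standing apart.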

How the results depend on the processing

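TPM holds no counts, so the limits set by the depth of each library were not assessed. Under the alternatives 6 named genes changed sign, none of them called (Gnao1, Hba-a1, Hba-a2, Hbb-bs, Hbb-bt and Nlrp5), Gnao1 by size factors and on the protein-coding scale. Of 2336 alternative values 44 no longer passed the limits and 27 newly did. Of 84 list and named genes called on the protein-coding scale 11 were not called without some library, and the report names them. As deposited, Hspb1, Il18, Kcnk3, Nr4a1, Prkar2b and Rasd1 were lost in this way. As deposited, falls numbered 123 to 171 and rises 92 to 146 when 1 library was left out, and on the protein-coding scale 235 to 272 and 71 to 88. A mean of at least 5 TPM, which tests fewer genes, gave 109 falls, 75 rises and 210 transcripts in place of 168, 117 and 343. Size factors gave 230 falls and 66 rises as deposited; the cause was not tested. They lost Il18, Kcnk3, Lhcgr, Npr1, Nr4a1, Plau, Prkar2b, Rasd1 and Timp1, and a pseudocount of 1 lost Hspb1 and Il18 among the genes reported. Replicate numbers 2 and 3 occur in both groups, and no label says what the numbers mark. Deviations from the group means did not go together (r of -0.036 and -0.01). With so few libraries this cannot decide whether a day or batch was shared. With the replicate block 267 genes fell and 197 rose as deposited, and 291 and 87 on the protein-coding scale. The difference from PRKO was called for 30, 36 and 32 genes without KO replicates 2, 3 and 4 and for 32, 34 and 40 without WT replicates 1, 2 and 3. As deposited it was called for 78 genes, 30 of them shared with the 52, and that from PRBKO for 303 to 332 genes without 1 library.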
